A study of Mus musculus with 6 samples.

Results

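The genes described here are 41 genes of DNA replication and mitosis, chosen by name from the 43346 genes of the deposited count table for their known place in S phase (15 genes) or in mitosis (26 genes). All 41 were found by symbol and passed the filter on low counts that left 18757 genes for testing. The 6 libraries came from femurs of C57BL/6 mice aged 4 months. The radiated group (3 libraries) is the right femur, where a stretch of 5 mm at the distal metaphysis was hit once by an image-guided beam of 24 Gy at 6.6 Gy per minute. The non-radiated group (3 libraries) is the left femur of such mice, outside the beam. The same region was taken from both sides on day 21, before the bone loss that the submitters saw later, and muscle was stripped off. No removal of marrow is described, and erythroblast markers summed to 18344 to 23842 CPM (a gene's counts scaled to a common library size, here by the trimmed mean of M-values, TMM), so blood-forming cells were in the samples. The control femur belonged to a radiated animal, and no femur from an animal without radiation is part of the comparison.

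A cell that commits to division passes from G1 into S phase when cyclin E with its kinase releases the E2F transcription factors. Origins have by then been licensed by Cdc6 and Cdt1, which load the Mcm2 to Mcm7 helicase, and the mitotic genes are switched on later, in G2, through promoter elements bound by the MuvB complexes. After radiation, p53 induces Cdkn1a, whose product p21 inhibits cyclin-dependent kinases and also brings both gene sets under the repressor DREAM. Marrow holds some of the fastest dividing cells of the body, among them erythroid, granulocytic and B cell precursors.

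On day 21 none of the 41 genes differed between the groups by edgeR's quasi-likelihood test at a Benjamini-Hochberg adjusted p under 0.05, while 7.8% of all genes tested did (4.56% higher and 3.24% lower). DESeq2's Wald test called 1 of the 41, Ccne2, as lower, against 4.56% of all genes it tested, and limma-voom called none. At an unadjusted p under 0.05 there were 5 of the 41 (Ccne2, Mcm6, Rrm1, Nuf2 and Cenpf), against 21.5% of all genes tested. The log2 fold changes, radiated over non-radiated, were small and all of one sign, from -0.30 (Ccne2) to -0.0044 (Nek2), with a median of -0.09 against 0.0023 for all genes tested. Below 0 were 41 of 41, where 49.5% of all genes tested were below 0. That sign depends on the scaling between libraries: under library totals alone 40 of the 41 were above 0, with a median of 0.11, but so was the median of all genes at 0.19, and relative to it the 41 genes stood at -0.09 again. It also depends on single libraries: 9 of the 41 were above 0 with radiated library 1 left out and 6 with non-radiated library 2 left out, and the median ranged from -0.15 to -0.06 when a library was left out. The 41 genes had mean values of 42.2 to 2661 CPM and 1087 to 144464 counts in a library, and their 95% intervals had a median width of 0.32 on the log2 scale against 0.50 for all genes tested. The 95% intervals of all 41 lay between -0.50 and 0.18 on the log2 scale, so each excluded a change of 2-fold in either direction, as did those of 82.8% of all genes tested.

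**Figure D1:**
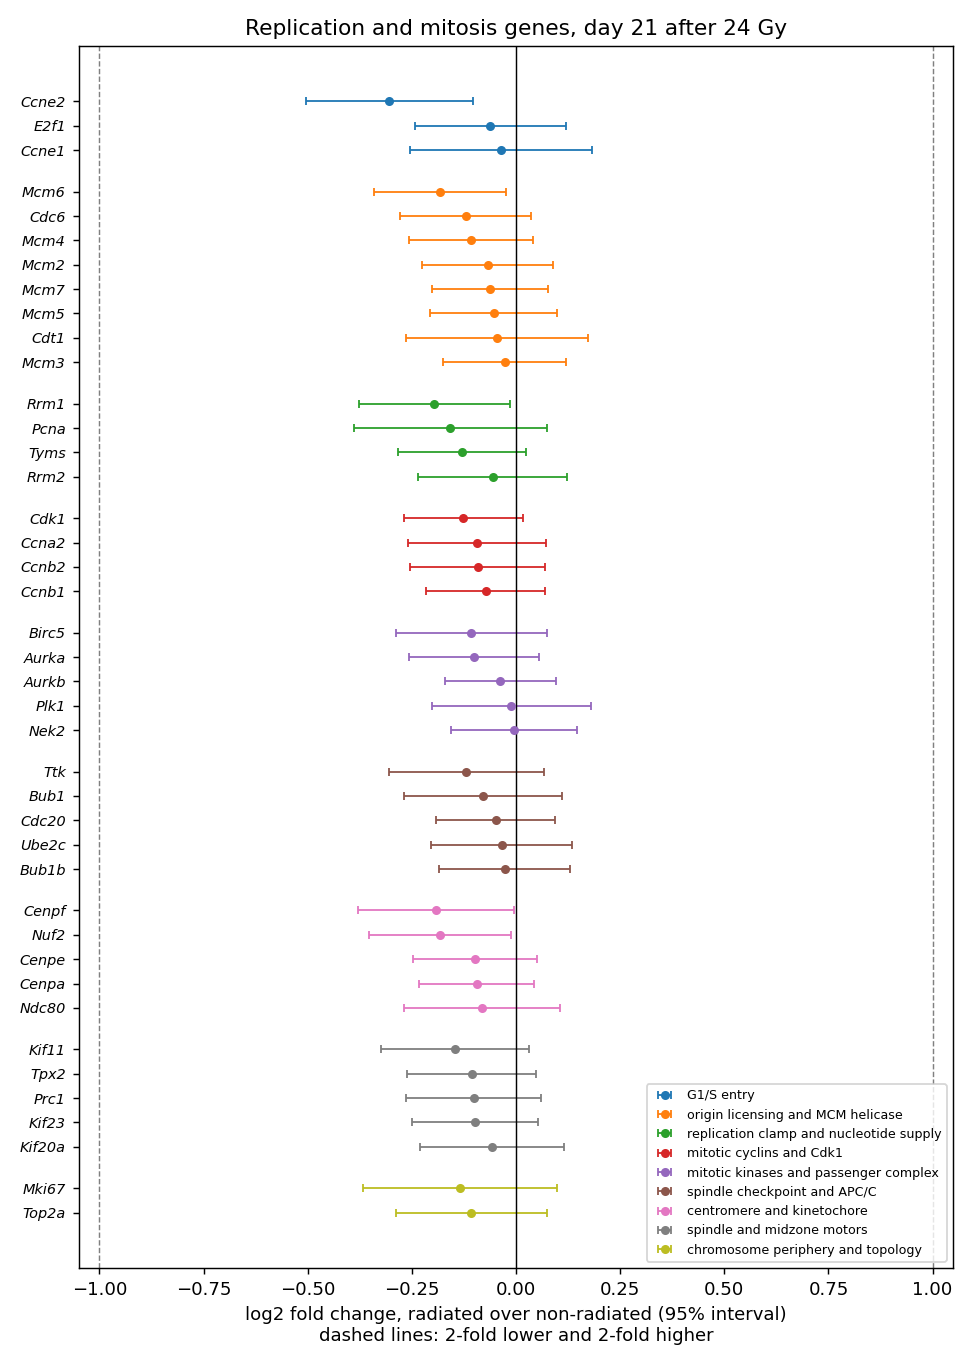
Log2 fold change of each of the 41 genes, radiated over non-radiated femur, with its 95% interval from the edgeR fit (x axis, log2 scale), grouped and coloured by role; dashed lines mark 2-fold changes. All points lie between -0.30 and -0.0044, and the intervals between -0.50 and 0.18.

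Most of the genes, but not all, were highest or lowest in the same libraries. E2f1 and Cdt1 were highest in non-radiated library 3, where Ttk and Bub1 were lowest. Relative to the mean of the non-radiated libraries, the median of the 41 genes was -0.00099, 0.0966 and -0.103 for the non-radiated femurs 1, 2 and 3 and -0.166, -0.0177 and -0.0993 for the radiated femurs (log2 CPM). Non-radiated library 2 was the highest of the 6 libraries for 34 genes, and radiated library 1 the lowest for 27. Non-radiated library 3 lay as low as radiated library 3, and the groups overlapped for 39 of the 41 genes. Only for Ccne2 and Mcm6 were the groups separate, both lower in the radiated libraries. Of all genes tested, 25.9% were separate in either direction and 11.5% were separate and lower. By the numbers in the library titles, the median difference was -0.17 for pair 1, -0.11 for pair 2 and -0.0027 for pair 3, and 15 genes were lower in the radiated library of all 3 pairs, against 19.6% of all genes tested. The median coefficient of variation of the 41 genes was 7.64% within the non-radiated and 6.00% within the radiated libraries. Nothing in the labels says that the numbered samples are separate animals, so p-values measure the spread between these samples, which may in part be technical.

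**Figure D2:**
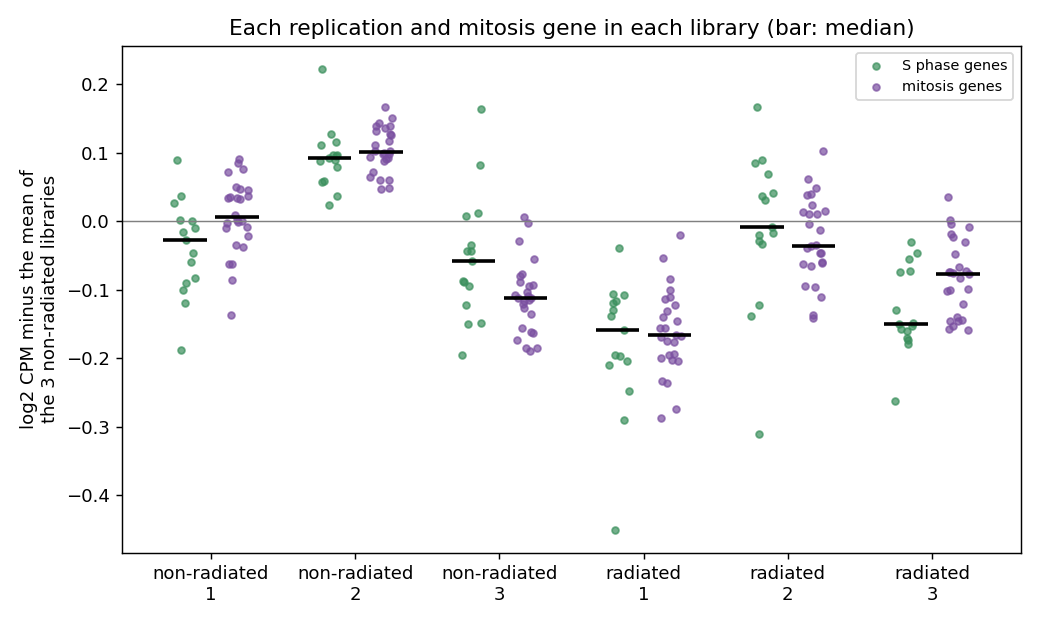
Each point is one gene in one library, as log2 CPM minus that gene's mean over the 3 non-radiated libraries (y axis); green points are the S phase genes, purple points the mitosis genes, and bars their medians. Non-radiated library 2 sits highest, with medians of 0.0929 and 0.101, and radiated library 1 lowest, with medians of -0.159 and -0.167.

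Total gene counts were 34034251 to 48708383 per library. A single row, AY036118, held 32.9% of the counts of non-radiated library 2 and 0.321% to 5.61% of those of the other libraries, and this library also stood highest for the 41 genes after TMM scaling. Without that library the median of the 41 was -0.06, with 35 below 0. Under library totals alone 40 of the 41 were above 0, and 4 of the 41 were with AY036118 left out of the totals. The part of AY036118 in the TMM-scaled values was not tested. Summed levels of markers of other cells also varied. Skeletal muscle markers summed to 437 to 822 CPM in non-radiated libraries and to 1884, 5800 and 576 CPM in radiated libraries 1, 2 and 3. All 14 muscle markers were above 0 and none was called. Osteoblast and osteocyte markers, which identify the tissue as bone, summed to 4543 to 6893 CPM in non-radiated and 3392 to 4296 CPM in radiated libraries. Of these 9 markers 2 were called lower (Col1a1 and Phex), against 3.24% of all genes tested. In bulk tissue, fewer cells of a type and less RNA per cell cannot be told apart, and neither can a change in one cell type that is offset in another.

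Promoter sequences show what the set shares that its choice did not use. RefSeq promoters (GRCm38.p6) were found for 35 of the 41 genes, and the 250 bases before the start were searched on both strands. Only the first promoter listed for a gene was used. For 30 of the 35, bases 21 to 40 after the start were found in a GENCODE M21 transcript of the gene. The box that the factor NF-Y binds (CCAAT) was in 27 of the 35, or 77.1%, against 34.5% of the 27025 promoters in the table. The E2F site (TTTCGCGC, TTTGGCGC, TTTCCCGC or TTTGCCGC) was in 4 of 13 S phase and 1 of 22 mitosis promoters, against 1.91% of all promoters. The cell cycle homology region, or CHR, which MuvB complexes bind (TTTGAA, or with a central CpG TTCGAA), was in 8 of 22 mitosis and 2 of 13 S phase promoters, against 17.4% of all, and each of those 10 also held the NF-Y box. The letters TATAAA were in none of the 35 and in 13.0% of all promoters. These are matches of letters, not measured binding. The 140 bases before the RefSeq start are given for a licensing gene with E2F sites (Mcm6, chr1:128359706-128359845, minus strand), for the mitotic kinase gene with all 3 of these elements (Cdk1, chr10:69352913-69353052, minus strand) and for a motor gene with CCAAT and CHR only (Kif11, chr19:37376242-37376381, plus strand), each 5′ to 3′ on the strand of the gene. For Cdk1 the last bases of the stretch lie inside the gene as the table draws it. Capitals mark E2F, CHR and CCAAT matches on either strand, and overlapping matches run together.
Mcm6: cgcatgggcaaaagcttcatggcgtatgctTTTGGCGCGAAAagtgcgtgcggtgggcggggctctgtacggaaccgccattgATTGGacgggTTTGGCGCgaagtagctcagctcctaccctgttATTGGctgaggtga
Cdk1: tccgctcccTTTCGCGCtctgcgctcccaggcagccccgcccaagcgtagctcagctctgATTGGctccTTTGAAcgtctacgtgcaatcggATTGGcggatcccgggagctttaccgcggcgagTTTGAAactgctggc
Kif11: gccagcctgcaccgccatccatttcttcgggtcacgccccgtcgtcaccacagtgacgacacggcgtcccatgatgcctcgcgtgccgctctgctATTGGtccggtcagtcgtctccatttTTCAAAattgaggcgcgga

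At entry into S phase the set holds E2f1, the transcription factor, and the cyclin E genes Ccne1 and Ccne2, whose products activate Cdk2. Ccne2 (chromosome 4, 11191351 to 11204779) was at 70.0, 68.5 and 59.3 CPM in the non-radiated femurs 1, 2 and 3 and at 48.1, 52.995 and 58.98 CPM in the radiated femurs, in the same order as for every gene that follows. The radiated libraries were lower, but the closest values of the groups, both from libraries numbered 3, nearly met. Its log2 fold change was -0.30 (with SE 0.09, adjusted p 0.0736 by edgeR), a change of -19.0% with a 95% interval of -29.5% to -6.93%. It became a call without non-radiated library 3 (-0.38, adjusted p 0.0452), without radiated library 3 (-0.38, 0.0347), with no filter on low counts (0.0207) and by DESeq2 (0.0129), 4 of 15 settings with a range of adjusted p of 0.0129 to 0.829. In the first 3 of these settings 3.17%, 2.26% and 2.71% of all genes tested were called lower. Ccne2 overlaps Ints8 on the other strand, which had 2537 counts on average beside 2344 for Ccne2, so its counts are uncertain, since the strand setting of the counting is not given in the sources used here. Its relative Ccne1 had a log2 fold change of -0.04 (SE 0.10), and a difference between the genes was not tested. E2f1 was at 44.0, 49.1 and 50.7 CPM without and 41.8, 49.1 and 46.9 CPM with radiation, overlapping, with a log2 fold change of -0.06 (with SE 0.08, adjusted p 0.726 by edgeR).

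The 8 genes of origin licensing and of the helicase had log2 fold changes of -0.18 to -0.03, with a median of -0.07. Mcm6 (chromosome 1, 128331590 to 128359664), a subunit of the helicase that opens DNA ahead of the polymerases, was at 348, 365 and 314 CPM without and 288, 314 and 304 CPM with radiation. The lowest non-radiated library and the highest radiated library were at 313.931 and 313.850 CPM, so the groups were barely separate. Its log2 fold change was -0.18 (with SE 0.07, adjusted p 0.168 by edgeR). The other 5 subunits, Mcm2, Mcm3, Mcm4, Mcm5 and Mcm7, are needed in equal numbers in the same ring. Their log2 fold changes were -0.07, -0.03, -0.11, -0.05 and -0.06, each with overlapping groups and an SE of 0.06 to 0.07. Cdc6, the loader that brings the ring to the origin, was at 157, 169 and 149 CPM without and 137, 157 and 143 CPM with radiation, which overlapped (log2 fold change -0.12 with SE 0.07, adjusted p 0.371 by edgeR). Its partner Cdt1 had a log2 fold change of -0.05 (SE 0.10), and overlaps Gm20388 on the same strand, so its reads could be split. Mcm7 also overlaps Cops6 and Ap4m1, but with 1076 and 1233 counts on average beside its 12012.

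Of the genes that supply the fork, Pcna encodes the sliding clamp, Rrm1 and Rrm2 the subunits of ribonucleotide reductase, and Tyms the enzyme that makes thymidylate. Rrm1 was at 465, 492 and 409 CPM without and 371, 412 and 409 CPM with radiation. Only radiated library 1 lay clearly below all non-radiated libraries, and the groups overlapped. Its log2 fold change was -0.20 (with SE 0.08, adjusted p 0.197 by edgeR), while that of its partner subunit Rrm2 was -0.06 (SE 0.08). Tyms was at 87.9, 93.3 and 82.5 CPM without and 76.2, 86.7 and 77.8 CPM with radiation (log2 fold change -0.13 with SE 0.07, adjusted p 0.320 by edgeR). Pcna, also a p53 target, had a log2 fold change of -0.16 (SE 0.10) and, of the 41 genes, the largest coefficient of variation among non-radiated libraries, 14.7%.

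The mitotic cyclins Ccna2, Ccnb1 and Ccnb2 and their kinase Cdk1 drive entry into mitosis. Cdk1 (chromosome 10, 69336635 to 69352938) was at 170, 173 and 155 CPM in the non-radiated and at 145, 161 and 150 CPM in radiated libraries. Non-radiated library 3 lay among the radiated libraries. The log2 fold change of Cdk1 was -0.13 (with SE 0.06, adjusted p 0.296 by edgeR), a 95% interval of -17.0% to 1.2%. Ccnb2 was at 114, 121 and 105 CPM without and 101, 115 and 102 CPM with radiation (log2 fold change -0.09 with SE 0.07, adjusted p 0.521 by edgeR). Ccna2, at -0.09, and Ccnb1, at -0.07, had nearly the same values. Ccna2 overlaps Exosc9 on the other strand, at 13256 and 1399 counts on average.

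The mitotic kinases and passenger genes had the median nearest to 0 of the 9 roles, at -0.04. Plk1, which acts at centrosomes and kinetochores, was at 53.6, 64.6 and 59.2 CPM without and 53.5, 63.3 and 59.0 CPM with radiation, and Nek2, a centrosome kinase, had means of 94.7 ± 5.94 and 94.3 ± 6.09 CPM (SD, n = 3 each). The log2 fold changes were -0.01 (SE 0.08) for Plk1 and -0.0044 (SE 0.07) for Nek2. Aurka, the spindle pole kinase, was at 77.1, 84.5 and 76.2 CPM without and 68.9, 79.9 and 72.8 CPM with radiation (log2 fold change -0.10 with SE 0.07, adjusted p 0.463 by edgeR). Of the chromosomal passenger complex, which corrects faulty attachments at centromeres, Birc5 was at 157, 167 and 147 CPM without and 130, 159 and 149 CPM with radiation (log2 fold change -0.11 with SE 0.08, adjusted p 0.503 by edgeR). Its kinase Aurkb had a log2 fold change of -0.04 (SE 0.06).

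In the spindle checkpoint, which holds anaphase back until every chromosome is attached, Ttk was at 51.0, 51.5 and 42.3 CPM without and 42.8, 44.5 and 45.9 CPM with radiation. The lowest of the 6 values was a non-radiated one. Its log2 fold change was -0.12 (with SE 0.08, adjusted p 0.464 by edgeR). Bub1, the checkpoint kinase, was at 82.0, 87.5 and 69.8 CPM without and 70.8, 76.2 and 79.1 CPM with radiation (log2 fold change -0.08 with SE 0.08, adjusted p 0.655 by edgeR). Bub1b, an inhibitor of the anaphase-promoting complex, stood at -0.03, and the activator and the ubiquitin-conjugating enzyme of that complex, Cdc20 and Ube2c, at -0.05 and -0.03. Cdc20 overlaps Elovl1 on the other strand, at 3116.5 and 1960 counts on average. Ube2c overlaps the muscle gene Tnnc2 on the other strand. Tnnc2 had 324 to 396 counts in non-radiated libraries and 1623, 7220 and 379 in radiated libraries 1, 2 and 3, whereas Ube2c was at 106, 120 and 116 CPM in those 3 radiated libraries and at 112, 129 and 109 CPM in the non-radiated ones.

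Centromere and kinetochore genes, whose products join chromosomes to the spindle, had a median of -0.10. Nuf2, of the complex that grips microtubules, was at 83.5, 84.8 and 70.3 CPM without and 67.4, 71.8 and 71.0 CPM with radiation. Non-radiated libraries 1 and 2 were above all the radiated ones and library 3 was not. The log2 fold change was -0.18 (with SE 0.08, adjusted p 0.203 by edgeR), and without non-radiated library 3 it was a call at -0.27 (adjusted p 0.0301), 1 of 15 settings with adjusted p from 0.0301 to 0.968. Cenpf, a large kinetochore protein of G2 and mitosis, had the same pattern, at 462, 493 and 403 CPM without and 369, 410 and 408 CPM with radiation (log2 fold change -0.19 with SE 0.08, adjusted p 0.221 by edgeR). Ndc80, the direct partner of Nuf2, Cenpe, a kinetochore motor, and Cenpa, the centromeric histone, stood at -0.08, -0.10 and -0.09. In pair 3 all 5 of these genes were higher in the radiated library, and in pairs 1 and 2 all 5 were lower.

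The spindle and midzone genes had a median of -0.10. Kif11, the motor that pushes spindle poles apart, was at 422, 415 and 356 CPM without and 337, 371 and 369 CPM with radiation (log2 fold change -0.15 with SE 0.08, adjusted p 0.332 by edgeR). Tpx2, the activator of Aurka, was at 194, 211 and 179 CPM without and 172, 185 and 184 CPM with radiation (log2 fold change -0.11 with SE 0.07, adjusted p 0.427 by edgeR). For both genes non-radiated library 3 lay within the radiated range. Kif20a, Kif23 and Prc1, which act in cytokinesis, stood at -0.06, -0.10 and -0.10. Kif20a overlaps Cdc23 on the other strand, at 3937 and 2909 counts on average.

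The proliferation marker Mki67, whose product coats mitotic chromosomes, was the most abundant of the 41 genes. It was at 2766, 3113 and 2475 CPM without and 2410, 2705 and 2494 CPM with radiation. The highest radiated library was above the lowest non-radiated one, and the log2 fold change of -0.13 (with SE 0.10, adjusted p 0.515 by edgeR) had a 95% interval of -22.5% to 7.09%. Top2a, the topoisomerase that untangles sister chromatids, was at 1018, 1068 and 906 CPM without and 881, 954 and 944 CPM with radiation (log2 fold change -0.11 with SE 0.08, adjusted p 0.503 by edgeR). Per kilobase of gene length, Mki67 was at 276 CPM in non-radiated libraries, followed by Rrm2 at 157, Rrm1 at 114 and Top2a at 111, and the lowest were Nuf2 at 12.5 and Ttk at 9.82. In radiated libraries the same 6 genes were at 252, 151, 99.4, 103, 11.1 and 9.03 CPM per kilobase. Rrm1 and Top2a, neighbours in that order, changed places and were closer than the spread of their libraries.

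**Figure D3:**
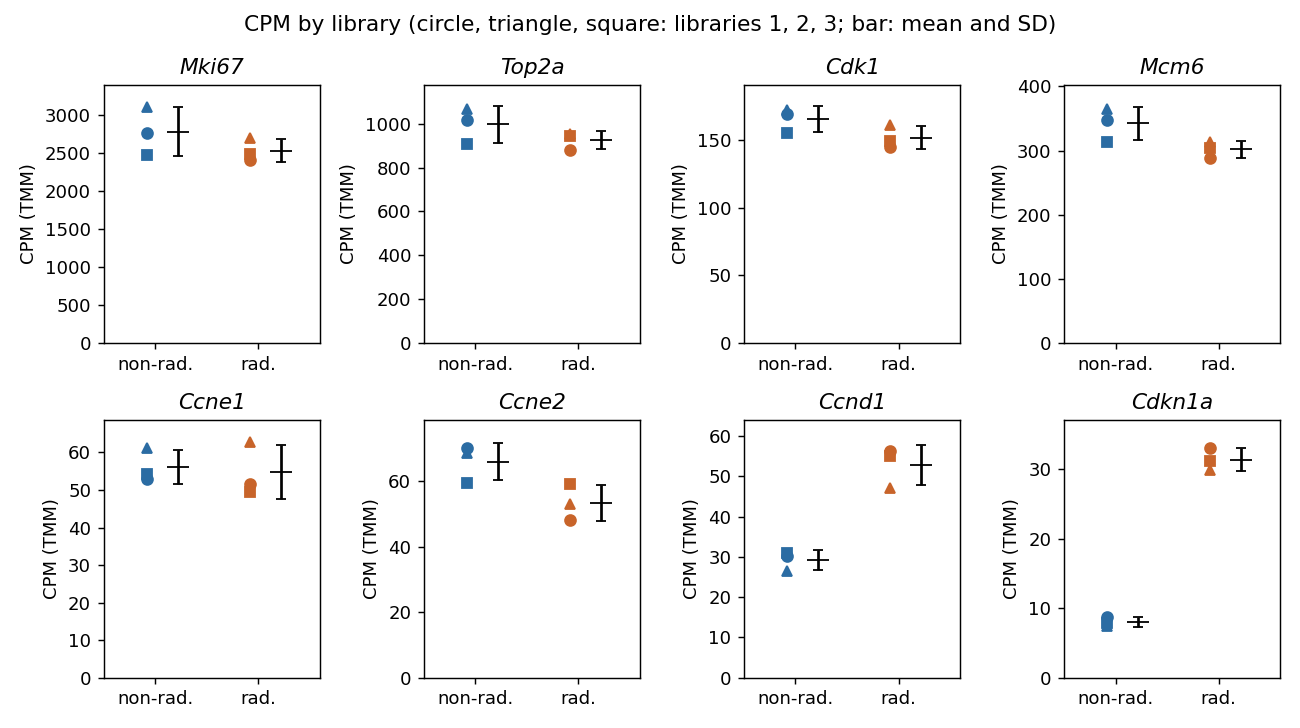
CPM in each library (y axis from 0, TMM-scaled) for 6 genes of the set and for Ccnd1 and Cdkn1a; circles, triangles and squares are libraries 1, 2 and 3, and the bars beside them are mean and SD (n = 3). The groups overlap for Mki67, Top2a, Cdk1 and Ccne1, nearly meet for Mcm6 and Ccne2, and are far apart for Ccnd1 and Cdkn1a.

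The rest of the pathway was read from 132 other genes in 4 lists. Of 45 other replication genes (further origin, polymerase, clamp loader and nucleotide genes) none was called, with a median of -0.06 and 39 below 0. The smallest p were those of Pola1, the catalytic subunit of the priming polymerase (log2 fold change -0.20, SE 0.07, edgeR adjusted p 0.136, and 0.0357 without non-radiated library 3), and of Orc2, of the origin recognition complex (-0.15, SE 0.06, 0.193). Of 55 other mitosis genes none was called, with a median of -0.12 and 44 below 0. Anln, which organises the cleavage furrow, and Pbk, a mitotic kinase, had the smallest p there (-0.18 and -0.17, edgeR adjusted p 0.150 and 0.159). Of 19 genes for the E2F factors, the RB family and the DREAM and MuvB subunits none was called, with a median of -0.03. Rb1, the retinoblastoma repressor, and Lin54, the MuvB subunit that reads the CHR, stood at -0.17 and -0.13 (edgeR adjusted p 0.217 and 0.244). At an unadjusted p under 0.05 there were 3 of 45, 8 of 55 and 1 of 19 genes in these lists. Of all genes tested, 21.5% were at that level. Without non-radiated library 3 there were 7 of the 132 genes called lower (Cenpk, Cks2, Depdc1a, Hmmr, Nusap1, Pola1 and Smc2), where 3.17% of all genes tested were called lower.

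The list of G1 cyclins, their kinases and mitogenic drivers also held Cdkn1a, the gene of the inhibitor p21. This list was the only pathway list with called genes, 3 of 13, all higher, where 4.56% of all genes tested were called higher. Most of the list went the other way, with 9 of 13 below 0 and a median of -0.01. At an unadjusted p under 0.05 there were 6 of 13, against 21.5% of all genes tested. They were the 3 called genes and, below 0, Cdk6, Myc and Mycn. Mycn, named after its value was seen, was the lowest of the list at -0.64 (with SE 0.19, adjusted p 0.0734 by edgeR). Cdkn1a, the p21 gene (chromosome 17, 29090979 to 29100722), was at 8.80, 7.43 and 7.93 CPM in the non-radiated and at 33.1, 30.0 and 31.2 CPM in radiated libraries. The groups were far apart, at a log2 fold change of 1.96 (with SE 0.09, adjusted p 5.94e-06 by edgeR), or 3.89-fold. Ccnd1, the cyclin D1 gene (chromosome 7, 144929931 to 144939869), was at 30.3, 26.4 and 31.0 CPM without and 56.3, 47.2 and 54.9 CPM with radiation. It was 1.80-fold higher (log2 fold change 0.85 with SE 0.09, adjusted p 0.000654 by edgeR), and both genes were called in all 15 settings. Ccnd2, the cyclin D2 gene, was at 127, 120 and 127 CPM without and 153, 144 and 154 CPM with radiation (log2 fold change 0.27 with SE 0.05, adjusted p 0.0161 by edgeR). The call of Ccnd2 was lost under library totals alone (adjusted p 0.270), with non-radiated library 2 left out (0.0932) and with radiated library 1 left out (0.0745). Ccnd1 overlaps Oraov1 and Ccnd2 overlaps 9330179D12Rik in the table. Cdkn1a, Ccnd1 and Ccnd2 were thus higher in the radiated libraries on day 21. The remaining cyclin D gene, Ccnd3, stood at -0.01, and no gene of the replication and mitosis set was called in the same fit.

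Markers of the precursors that divide in marrow were also read. Of all genes tested, 4.56% were called higher and 3.24% lower. Of 11 markers of pro-B and pre-B cells all 11 were called higher (median 0.84), and they summed to 527 to 598 CPM in non-radiated and 871 to 1091 CPM in radiated libraries. Of 10 early neutrophil markers all were below 0, with 3 called lower, Ctsg, Ms4a3 and Chil3 (median -0.36), and they summed to 8462 to 10262 and 6736 to 7972 CPM. Of 12 erythroblast markers 8 were below 0 and 4 above (median -0.07), and 1 was called, the globin gene Hba-a2, higher. Their sums, 18344 to 20830 and 20498 to 23842 CPM, overlapped and tended higher in radiated libraries, opposite to the median. All 9 megakaryocyte markers were called lower (median -1.45), from 1056 to 1120 down to 360 to 430 CPM. The part of these cell types in the values of the 41 genes was not tested. The 41 genes themselves summed to 9658 to 11367 CPM in non-radiated and 9209 to 10236 CPM in radiated libraries.

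**Figure D4:**
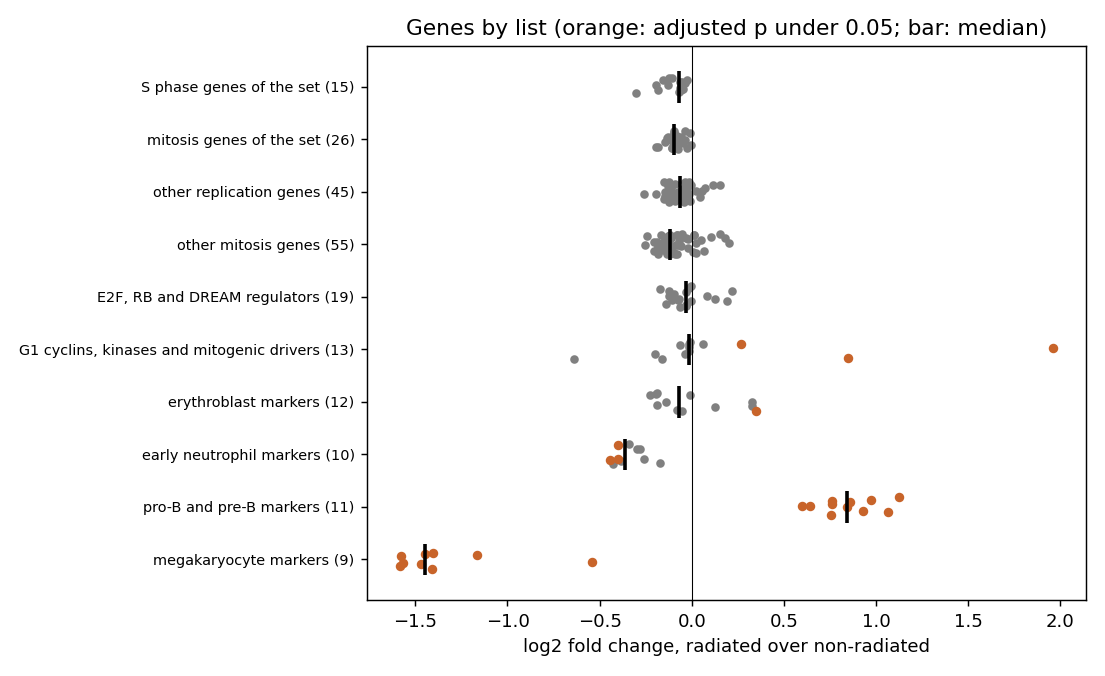
Log2 fold change, radiated over non-radiated (x axis), of each tested gene in the S phase and mitosis sets, 4 further pathway lists and 4 lists of cell markers (number of genes in brackets); orange points have an edgeR adjusted p under 0.05 and bars are medians. The 41 genes lie just below 0 with no orange point, while Cdkn1a, Ccnd1, Ccnd2 and Hba-a2 and the pro-B, neutrophil and megakaryocyte markers hold the orange points.

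**Figure D5:**
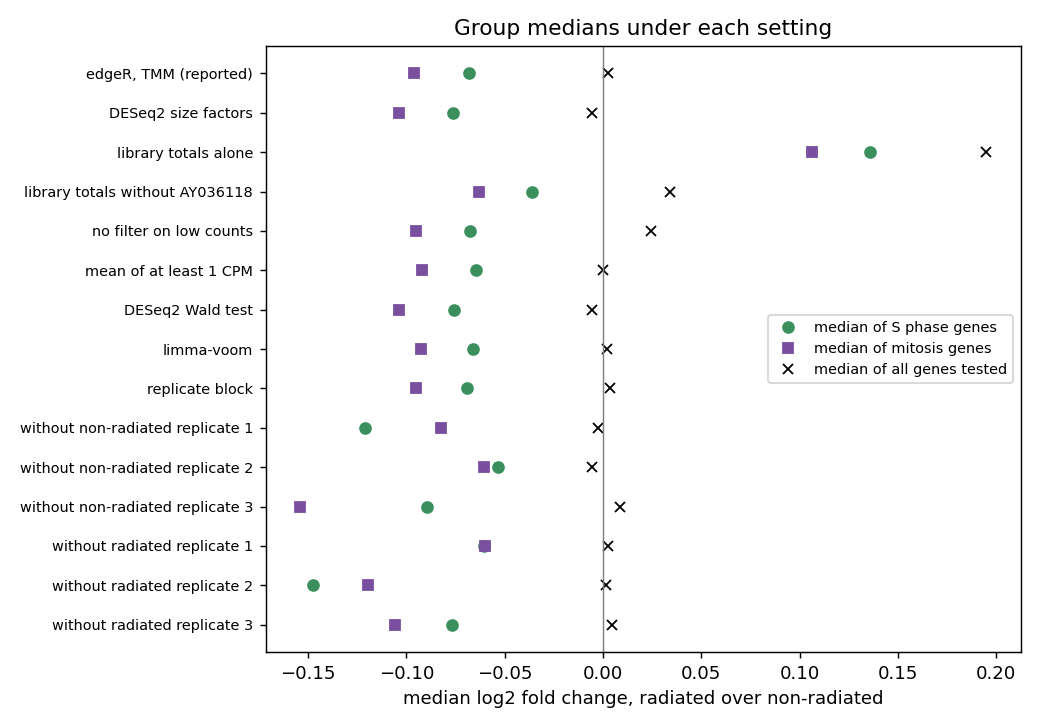
Median log2 fold change (x axis) of the 15 S phase genes (green), the 26 mitosis genes (purple) and all genes tested (crosses) under each of 15 settings (y axis). Both medians are below the all-gene median in every setting shown, and above 0 under library totals alone, at 0.14 and 0.11 against 0.19.

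The medians of the S phase and mitosis genes were -0.07 and -0.10. Among them, 3 of 15 and 2 of 26 were at an unadjusted p under 0.05, against 21.5% of all genes tested. By library number, in pair 3 the radiated library was lower for 7 of 26 mitosis genes and 14 of 15 S phase genes, while in pair 1 it was lower for 24 of 26 and 13 of 15. Shares of all genes in single pairs were not computed, and a difference between the sets was not tested.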

How the data were processed

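The deposited table gives each library a column of raw counts and one of RPKM, as its header names them. The authors' RPKM values, whose library constant the sources do not define, entered no test. Libraries were made with a stranded mRNA kit, per the labels' protocols. The submitters' processing notes name, with no role or order, STAR 2.5.2b, Subread, featureCounts and build mm10. The annotation, filters and strand setting are not given in the sources used here. Coordinates are those of the table. All 41 gene IDs are in GENCODE M21 (GRCm38), 29 with the same start and end, and 3 list genes were matched by gene ID.

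Deposited counts went into edgeR 4.0.16, run in R 4.3.3 (filterByExpr with minimum count 10 and minimum total 15, TMM, glmQLFit and glmQLFTest, with a term for the group alone). The Benjamini-Hochberg adjustment ran across the 18757 genes that passed. The standard error is the log2 fold change divided by the square root of F. Fold changes are relative to the bulk of genes, not to a cell. Alternatives were DESeq2 1.42.0 (its size factors, and its Wald test), limma-voom 3.58.1, library totals with and without AY036118, no filter or a mean of at least 1 CPM, the replicate number as a block, and leaving out each library. In counts simulated for 18757 genes, 2-fold changes were called in 85.6% of cases and 4-fold changes in 100%, with 12 calls among 18363 unchanged genes. Every simulated gene had the same biological coefficient of variation (12.9%), libraries were independent, and none had an excess of AY036118. These rates may therefore differ from those of the real data, and smaller changes were not simulated.

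CPM per kilobase uses the table's gene length. The rule for the 41 genes names them and uses no measured value, but they and all pathway and marker lists were chosen with earlier results of these data known, so their directions are not independent evidence. Named in full were the 2 genes of each role with the smallest p, and in other pathway lists the called genes or, with none called, the 2 with the smallest p. Replicates differed by more than sampling noise (chi-square per degree of freedom 17.9 to 604). These values were scaled by total counts without TMM. The pairs with non-radiated library 2, where AY036118 was in excess, gave 604 and 518, and the other non-radiated pair gave 45.2. Titles number the libraries 1 to 3 in both groups. Deviations from the group means correlated at 0.186, 0.349 and 0.204 across genes for the same numbers and at 0.0203 or less for others, so libraries of 1 number were treated as pairs in the replicate block and in the differences by pair. All other fold changes, errors and p-values are unpaired.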

Additional observations from a re-analysis of the deposited data

How the results depend on the processing

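With the replicate number as a replicate block no gene of the set was called and their median was -0.09, and the block changed no other call named here. The set held no called gene in 10 of 14 alternatives; it held 1, Ccne2, with no filter on low counts and 1 by DESeq2's Wald test, and 0 to 2 when a library was left out. Against 1463 genes called in all, leaving out a library gave 764 to 1376 (764 with radiated library 1 out, 905 and 819 with non-radiated library 1 or 2 out), and 2073 with no filter, where more genes were tested. The share of called genes that were higher was 58.5%, 85.4% under library totals alone and 67.3% under library totals without AY036118, a setting chosen after seeing the data. Other pathway genes called ranged from 2 to 10 when a library was left out (10 without non-radiated library 3). The medians under library totals alone were 0.11 for the set, 0.14 for the S phase genes and 0.11 for the mitosis genes, where the median of all genes moved to 0.19; leaving AY036118 out of the totals brought the set to -0.06. Leaving out a library gave medians of -0.15 to -0.06 for the set. Under library totals alone the log2 fold changes above 0 were 0.0047 (Pola1), 0.0092 (Rrm1), 0.014 (Cenpf), 0.019 (Nuf2), 0.021 (Mcm6), 0.023 (Anln), 0.025 (Pbk), 0.029 (Rb1), 0.048 (Orc2), 0.051 (Kif11), 0.060 (Pcna), 0.066 (Lin54), 0.072 (Tyms, Cdk1), 0.077 (Mki67), 0.081 (Ttk), 0.082 (Cdc6), 0.095 (Birc5), 0.096 (Top2a), 0.097 (Mcm4), 0.099 (Tpx2, Cenpe), 0.10 (Aurka), 0.11 (Ccna2, Cenpa, Prc1, Kif23, Ccnb2), 0.12 (Ccnb1, Ndc80), 0.13 (Bub1), 0.14 (Mcm2, E2f1, Mcm7, Rrm2), 0.15 (Mcm5, Kif20a, Cdt1, Cdc20), 0.17 (Aurkb, Ccne1), 0.18 (Ube2c, Mcm3, Bub1b), 0.20 (Plk1, Nek2). Without AY036118 in the totals Mcm3, Bub1b, Plk1 and Nek2 were above 0, at 0.0049, 0.0052, 0.021 and 0.028. Ranges that crossed 0 when a library was left out were E2f1 -0.12 to 0.0010, Ccne1 -0.15 to 0.031, Cdt1 -0.14 to 0.037, Mcm3 -0.078 to 0.011, Rrm2 -0.13 to 0.0093, Plk1 -0.079 to 0.049, Nek2 -0.047 to 0.047, Bub1b -0.087 to 0.016, Ube2c -0.083 to 0.031.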
